A study of Mus musculus with 12 samples.

Results

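The genes described are 10 cytosolic heat shock genes, taken by symbol from a named list and matched to the Ensembl identifiers of the count files. They are Hsf1, Hsp90aa1, Hsp90ab1, Hspa8, Hspa1a, Hspa1b, Dnaja1, Dnajb1, Hsph1 and Hspb1, and all 10 were found among the 56748 gene identifiers of the series. Bulk RNA-seq counts were available for 12 libraries of murine Lin-Sca+Kit+ bone marrow (BM) cells, the fraction that holds stem and multipotent progenitor cells. Donor BM was from SCLtTA/BCR-ABL mice with both transgenes (DTG), in which regulatory sequence of the SCL gene drives the tetracycline (TET) transactivator in primitive haemopoietic cells and human BCR::ABL1 is made only when TET is absent. Donor cells carried CD45.2, the B6.SJL recipients carried CD45.1 and were labelled 8 to 12 weeks old, and CD45.2+ cells were sorted. Every recipient had been irradiated with 2 doses of 4.25 Gy set 3 h apart and given TET for 2 weeks after transplantation.

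The BCR::ABL1- group (CTRL, n = 6) stayed on TET, and the BCR::ABL1+ group (CML 2wk, n = 6) was taken off TET for 2 weeks. Both groups therefore carried both transgenes, the irradiation and the transplant, and donor marrow was a pool of several DTG mice. The labels give every CTRL sample as male and every CML 2wk sample as female, although the design text speaks of recipients of both sexes, so the labelled sex and BCR::ABL1 cannot be told apart. Nothing in the labels says whether replicates came from separate mice, and p-values measure the spread between these libraries. Depth was 22804754 to 41832868 counts per CTRL library and 16150817 to 25070105 per CML 2wk library. Mitochondrial genes took 0.816% to 1.288% of counts in CTRL and 2.258% to 2.973% in CML 2wk. The sorting markers Kit, Ly6a and Ptprc were present in all 12 libraries, with Kit at 749 ± 45.5 CPM in CTRL and 412 ± 71.1 in CML 2wk (SD, n = 6 each). CPM are counts scaled to a common library size with edgeR's TMM factors.

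Cytosolic chaperones keep proteins folded and hand unstable ones on for degradation. Hsp70 proteins bind exposed stretches of a client with the help of J-domain proteins and exchange factors, and Hsp90 then holds many kinases and receptors close to their active shape. BCR::ABL1 is itself a known client of Hsp90. Heat shock factor 1 (Hsf1) is the main transcription factor of the response, and it binds heat shock elements, short inverted repeats of an nGAAn unit, in the promoters of the inducible members. The family thus holds constitutive genes (Hspa8 and Hsp90ab1), strongly inducible genes (Hspa1a, Hspa1b, Hspb1), and genes with a basal level that heat raises (Hsp90aa1, Dnajb1, Hsph1, Dnaja1).

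The promoter sequences are shown because Hsf1 is known to act on inducible heat shock genes through such elements. The part of these elements in the values across libraries was not tested. RefSeq promoters (GRCm38.p6, 250 bases before to 50 bases after an annotated start) were given for 6 of the 10 members, and Hsf1, Hsp90aa1, Hsp90ab1 and Hspa8 were not among them. The counts were made on GRCm39, so the coordinates belong to the sequences only. An element of 2 inverted units was searched as GAANNTTC or TTCNNGAA, each of which is its own reverse complement, so both strands were covered. Windows of 40 bases around each match follow, 5′ to 3′ on the gene's strand, with the matched bases in capitals.
Hspa1a, chr17:34972237-34972276, minus strand: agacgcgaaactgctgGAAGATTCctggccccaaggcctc
Hspa1b, chr17:34959319-34959358, minus strand: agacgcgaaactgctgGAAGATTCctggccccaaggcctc
Hsph1, chr5:149636346-149636385, minus strand: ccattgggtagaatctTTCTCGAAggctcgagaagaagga
Hsph1, chr5:149636287-149636326, minus strand: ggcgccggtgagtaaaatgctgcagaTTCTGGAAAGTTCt
Dnaja1, chr4:40722328-40722367, plus strand: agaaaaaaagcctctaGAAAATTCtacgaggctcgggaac
Hspb1, chr5:135887786-135887825, plus strand: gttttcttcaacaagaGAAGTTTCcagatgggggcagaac
Hspb1, chr5:135887806-135887845, plus strand: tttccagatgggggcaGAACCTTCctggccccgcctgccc

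A match was found for 5 of the 6 members with a promoter, and none was found for Dnajb1. Over all 27025 genes with a promoter in the table, 17.0% held at least 1 match, and among the other cytosolic chaperone and cofactor genes listed below 15 of 51 did (29.4%). The matches of Hspa1a and Hspa1b began 104 bases before the start, and their windows were the same. The second Hsph1 window, which began its match 36 bases after an annotated start, held both motifs overlapping over 13 bases, an element of 3 alternating units that 0.662% of all genes with a promoter hold. A match is a string of letters and says nothing of binding.

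Identity between members sets how far their counts can be trusted apart. The Hspa1a and Hspa1b promoters differed at 4 of 300 bases. Their coding sequences (GENCODE, 1923 and 1926 bases) were 99.58% identical over 1923 aligned bases, with 8 differences. Of the Hspa1a transcript sequence, 56.5% of all 100-base windows occurred exactly in another annotated gene, mainly Hspa1b, and for Hspb1 the share was 44.0%, mainly with the pseudogene Hsp25-ps1. Windows shared with other genes made up 38.0% for Hsp90aa1, 28.5% for Hspa8 and 16.6% for Dnaja1, and 0 for Hsf1, Hsp90ab1, Dnajb1 and Hsph1. How reads that map to several places were counted is not given in the sources used here, so counts of the members with shared windows are uncertain. Hspa1b and Hspa8 were 74.61% identical in coding sequence and Hsp90aa1 and Hsp90ab1 76.55%.

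Of the 10 members, 9 passed the filter on low counts, and Hspb1 did not. By edgeR's quasi-likelihood F test, with p-values adjusted by Benjamini and Hochberg's method over 18438 genes and a threshold of 0.05, Hspa8 and Hsp90aa1 were higher in BCR::ABL1+ cells, Hsf1 and Hspa1a were lower, and the other 5 did not pass. The 2 members higher stand against 30.6% of all tested genes higher, and the 2 lower against 29.0% lower, so neither count exceeds the background. The 2 groups did not overlap in CPM for 3 members (Hsf1, Hsp90aa1 and Hspa8), against 37.6% of all tested genes. The median log2 fold change (CML 2wk minus CTRL) of the 9 members was -0.154, beside 0.067 for all genes. In bulk samples, fewer cells of a type and less RNA per cell cannot be told apart.

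**Figure D1:**
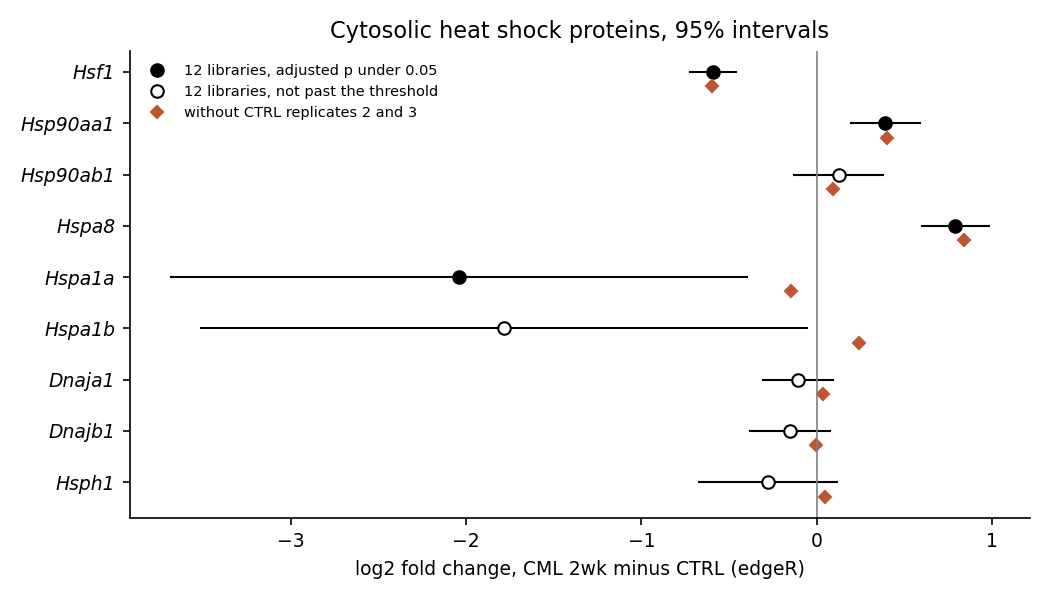
Log2 fold change of each tested member (x axis, CML 2wk minus CTRL, edgeR) with its 95% interval, not adjusted for the number of genes. Filled circles passed an adjusted p of 0.05, and orange diamonds are the values without CTRL replicates 2 and 3, where Hspa1a moves from -2.04 to -0.145.

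Hsf1 (ENSMUSG00000022556), the regulator of the family, was lower in BCR::ABL1+ cells. Its CPM in CTRL replicates 1 to 6 were 49.71, 52.53, 50.53, 51.62, 51.58 and 51.24, and in CML 2wk replicates 1 to 6 they were 31.23, 34.91, 37.49, 34.34, 36.08 and 29.85. Every CML 2wk library lay below every CTRL library. The log2 fold change was -0.59 (SE 0.0624, edgeR adjusted p = 1.79e-06, n = 6 per group), a fold of 0.664. The 6 CTRL libraries were closer together for Hsf1 than for most genes, with a coefficient of variation of 1.908%, beside a median of 5.986% over the 2525 genes of similar level. In CML 2wk the coefficient was 8.567%, beside 12.73%. Of the other Hsf genes only Hsf2, a relative of Hsf1, and Hsbp1, which binds and restrains Hsf1, could be tested. Hsbp1 was higher in CML 2wk (59.2 ± 2.45 against 79.2 ± 15 CPM, SD, n = 6 each, log2 fold change 0.42, edgeR adjusted p = 0.00285), and Hsf2 stood at 28.6 ± 1.64 and 28.3 ± 5.16 CPM (log2 fold change -0.02, edgeR adjusted p = 0.911).

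Hspa8 (ENSMUSG00000015656), the constitutive Hsp70 that also drives uncoating of clathrin vesicles, rose most in CPM. It stood at 1430, 1388, 1638, 1210, 1316 and 1370 CPM in CTRL replicates 1 to 6 and at 2711, 2124, 2611, 2252, 2127 and 2620 in CML 2wk replicates 1 to 6. The groups did not overlap. On the log2 scale the fold change was 0.79 (SE 0.0895, 95% interval 0.599 to 0.981, edgeR adjusted p = 3.42e-06), a fold of 1.73. The gene hosts the small nucleolar RNAs Snord14c, Snord14d and Snord14e on its own strand.

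Hsp90aa1 (ENSMUSG00000021270), the stress-responsive cytosolic Hsp90, rose less. CTRL replicates 1 to 6 gave 933.4, 852.1, 1041, 784.1, 984.4 and 910.7 CPM, and CML 2wk replicates gave 1446, 1152, 1095, 1123, 1062 and 1334. The groups lay side by side with a narrow gap, between CTRL replicate 3 and CML 2wk replicate 5. The log2 fold change was 0.39 (SE 0.0918, edgeR adjusted p = 0.00208, n = 6 per group).

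Hsp90ab1 (ENSMUSG00000023944), the constitutive cytosolic Hsp90, was the most abundant member and did not pass the test. Its CPM were 2696, 2212, 2699, 2386, 2663 and 2463 in CTRL and 3526, 3384, 2301, 2420, 2185 and 2680 in CML 2wk. CML 2wk replicates 1 and 2 were above all CTRL libraries, and CML 2wk replicate 5 was below all of them. Its log2 fold change was 0.13, with a 95% interval of -0.128 to 0.38 (edgeR adjusted p = 0.377). Within each library, Hsp90aa1 counts were a median of 0.37 of Hsp90ab1 counts in CTRL (0.329 to 0.386) and 0.47 in CML 2wk (0.34 to 0.498). This ratio does not depend on library scaling. Its log2 difference was 0.28 (two-sided exact permutation test over libraries, n = 6 per group, p = 0.0238, adjusted over 3 ratios 0.052), which did not pass 0.05 after adjustment. Without CML 2wk replicate 2 the difference was 0.357 and the adjusted exact p was 0.013. Without any other single library the adjusted exact p was 0.052 to 0.104, and for the difference of medians it was 0.101.

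**Figure D2:**
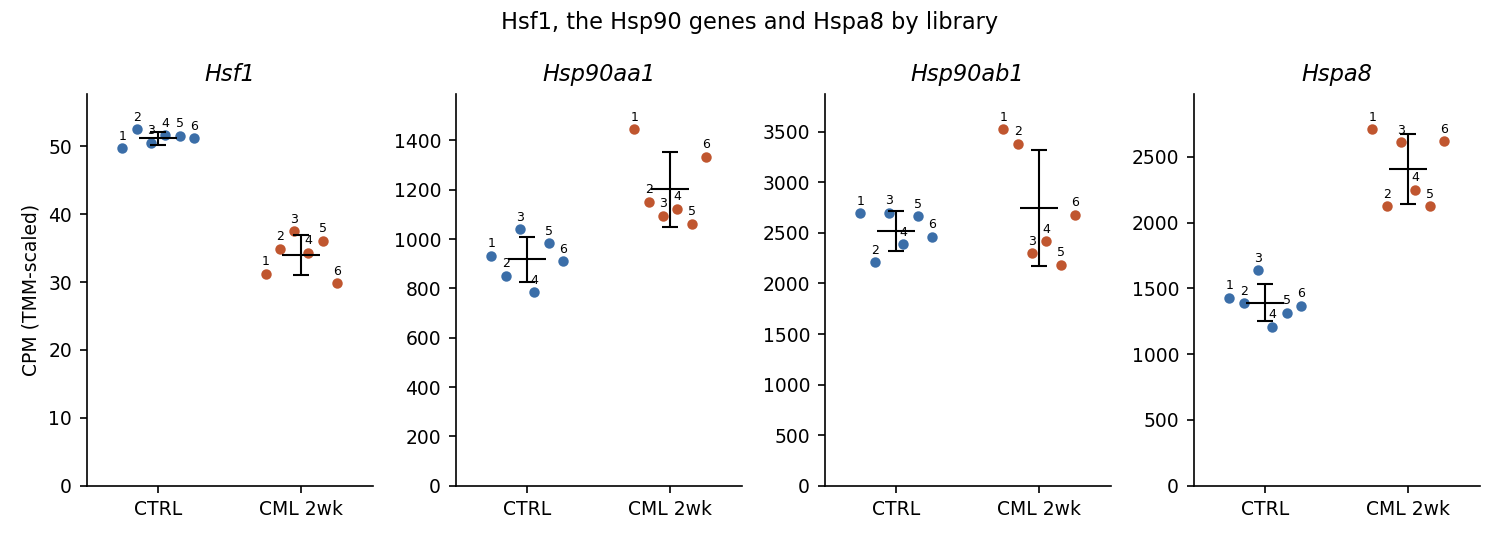
CPM (y axes, linear from 0, TMM-scaled) of Hsf1, Hsp90aa1, Hsp90ab1 and Hspa8 in each of the 12 libraries, numbered by replicate, with the mean and SD of each group (n = 6). Hsf1 in CML 2wk sits between 29.85 and 37.49, below all CTRL libraries, and Hspa8 sits between 2124 and 2711, above all of them.

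The stress-inducible Hsp70 genes were low and their highest values lay in 2 CTRL libraries. Hspa1a (ENSMUSG00000091971) gave 1.763, 17.29, 13.91, 1.257, 2.834 and 0.868 CPM in CTRL replicates 1 to 6, from 23 to 436 counts, and 0.340, 2.909, 0.858, 1.79, 0.450 and 2.763 in CML 2wk, from 6 to 68 counts. The groups overlapped. CTRL replicates 2 and 3 stood above the other 10 libraries, and the other 4 CTRL libraries lay within the range of CML 2wk. The log2 fold change was -2.04 (SE 0.769, edgeR adjusted p = 0.0331).

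That call for Hspa1a depended on single libraries. The edgeR adjusted p was 0.111 without CTRL replicate 2 and 0.0865 without CTRL replicate 3. It was 0.0645, 0.0666, 0.0503 and 0.0661 without CML 2wk replicates 1, 3, 4 and 5 in turn. Without both CTRL replicates 2 and 3, an alternative chosen after their values were seen, the log2 fold change was -0.145 (edgeR adjusted p = 0.848).

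Hspa1b (ENSMUSG00000090877), the near copy of Hspa1a beside it on chromosome 17, repeated the pattern at a higher level. It gave 3.404, 43.49, 36.16, 4.036, 5.313 and 2.641 CPM in CTRL and 1.417, 10.74, 5.146, 3.635, 0.338 and 6.216 in CML 2wk. CTRL replicates 2 and 3 again stood above all other libraries, and CML 2wk replicate 2 was next. The log2 fold change was -1.78 (SE 0.808) and the edgeR adjusted p was 0.070. It was 0.0447 without CTRL replicate 6 and 0.0273 without CML 2wk replicate 2, and without CTRL replicates 2 and 3 the log2 fold change turned to 0.241 (edgeR adjusted p = 0.771). Because the 2 genes share most of their sequence, the split of counts between them is uncertain. Hspa1a also overlaps Gm20481 on the other strand, and without a stated strand setting the reads of Hspa1a and Gm20481 cannot be told apart.

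Set against the constitutive gene, Hspa1a and Hspa1b together gave a median of 0.00528 of the Hspa8 counts in CTRL (0.00256 to 0.0438) and 0.00235 in CML 2wk (0.00037 to 0.00643). The log2 difference was -2.25 (two-sided exact permutation test, n = 6 per group, p = 0.0346, adjusted over 3 ratios 0.052). Without CML 2wk replicate 2 it was -2.62 (adjusted exact p = 0.013). Without any other single library the adjusted exact p was 0.052 to 0.104. Leaving out CTRL replicates 2 and 3 gave a log2 difference of -1.18 (adjusted exact p = 0.229). As a difference of medians over all 12 libraries it was -1.14 (adjusted exact p = 0.101).

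The co-chaperones with a basal level that heat is known to raise showed the same pair of libraries at the top, by smaller margins. Hsph1 (ENSMUSG00000029657), an Hsp110 that exchanges nucleotide on Hsp70, gave 60, 97.97, 110.3, 50.73, 53.31 and 68.22 CPM in CTRL replicates 1 to 6 and 46.06 to 68.03 in CML 2wk. Apart from CTRL replicates 2 and 3, CTRL and CML 2wk covered almost the same range. Hsph1 gave a log2 fold change of -0.28 (95% interval -0.669 to 0.116, edgeR adjusted p = 0.207).

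Dnajb1 (ENSMUSG00000005483), the J-domain partner best known for working with inducible Hsp70, gave 77.65, 93.01, 98.43, 71.17, 70.93 and 63.13 CPM in CTRL and 60.2 to 79.67 in CML 2wk. Dnaja1 (ENSMUSG00000028410), a farnesylated J-domain protein, gave 149.1, 176.2, 188.9, 130.1, 133 and 133.6 CPM in CTRL and 131.8 to 153.2 in CML 2wk. In both genes only CTRL replicates 2 and 3 exceeded the highest CML 2wk library. Log2 fold changes were -0.15 for Dnajb1 (95% interval -0.383 to 0.074, edgeR adjusted p = 0.228) and -0.11 for Dnaja1 (95% interval -0.306 to 0.093, edgeR adjusted p = 0.341). The Dnajb1 to Dnaja1 ratio differed by -0.05 on the log2 scale (two-sided exact permutation test, n = 6 per group, p = 0.442). Dnaja1 overlaps Smu1, Gm6297 and Mir207 in the annotation, and without a stated strand setting their reads cannot be told apart.

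**Figure D3:**
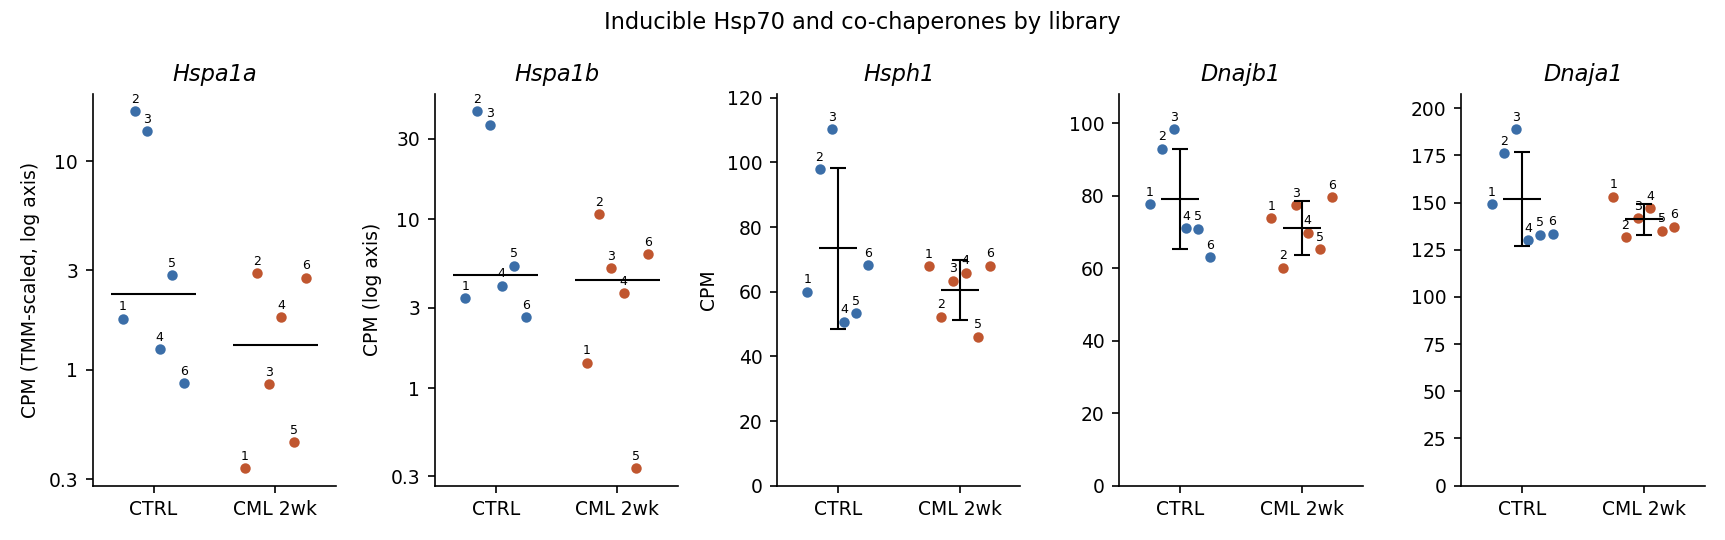
CPM of 5 members in each of the 12 libraries, numbered by replicate: Hspa1a and Hspa1b on log axes with the group median, and Hsph1, Dnajb1 and Dnaja1 on linear axes from 0 with the group mean and SD (n = 6). CTRL replicates 2 and 3 are the highest CTRL libraries in every panel, at 17.29 and 13.91 CPM for Hspa1a.

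CTRL replicates 2 and 3 were the highest CTRL libraries for 5 of the 9 tested members, namely Hspa1a, Hspa1b, Hsph1, Dnajb1 and Dnaja1. The pair was picked out after these values were seen. The share of all tested genes with the same 2 libraries highest is not given here. For Hsf1 CTRL replicates 2 and 3 stood at 52.53 and 50.53 CPM, with the other 4 CTRL libraries at 49.71 to 51.62. Hsp90aa1 in CTRL replicate 2 (852.1 CPM) lay within the range of the other 4 (784.1 to 984.4), and CTRL replicate 3 lay above it. The same held for Hspa8, at 1388 and 1638 CPM in CTRL replicates 2 and 3 against 1210 to 1430. Hsp90ab1 was lowest of CTRL in replicate 2 (2212 CPM) and highest by a narrow margin in replicate 3 (2699 against 2386 to 2696). Of 11 heat-inducible genes that are not members, 3 had these libraries as the 2 highest of CTRL, namely Bag3, Dnajb4 and Chordc1, which are named because they are so few. Bag3, an Hsp70 exchange factor of stress-induced autophagy, gave 17.8 and 18.21 CPM in them and 14.61 to 15.99 in the other 4. Dnajb4, a J-domain protein close to Dnajb1, gave 44.84 and 36.65 against 31.17 to 34.8 CPM, and Chordc1, an Hsp90 co-chaperone, gave 104.7 and 119.9 against 92.2 to 104.

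The spread of the inducible members over CTRL libraries was wide for their level. The coefficient of variation in CTRL was 115.4% for Hspa1a and 118.3% for Hspa1b, beside medians of 17.27% and 9.711% over genes of similar level. It was 33.84% for Hsph1 and 17.48% for Dnajb1, beside 5.598% for both, and 16.49% for Dnaja1, beside 5.728%. In CML 2wk the spread of Hspa1a and Hspa1b was wide too, at 75.23% and 81.56% beside 32.47% and 20.13%. Hsph1 stood at 15.22% and Dnajb1 at 10.44%, beside 11.54% for both, and Dnaja1 at 5.674%, beside 10.74%.

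Immediate early genes, which like the heat shock genes can respond to handling of cells, are given beside these values. The summed CPM of 18 such genes were 480, 1273, 441, 696, 663 and 362 in CTRL replicates 1 to 6 and 281 to 619 in CML 2wk. CTRL replicate 2 was the highest CTRL library for 16 of the 18, Egr2 and Socs3 being the exceptions, and CTRL replicate 3 for 0. The shares of all tested genes highest in these libraries are not given here. The most abundant of them, the AP-1 subunit Jun, stood at 257 CPM in CTRL replicate 2 and 66.7 in CTRL replicate 3, with 47.1 to 115.6 in the other 4. Junb, Ier2, Zfp36 and Klf6 were likewise highest of CTRL in replicate 2, at 84.9, 82.1, 108.3 and 76.8 CPM, against 43.3, 51.8, 41.3 and 59.1 in replicate 3. The pair of libraries with high Hspa1a and Hspa1b thus differed from each other in immediate early genes. Between groups, 11 of the 18 were lower in CML 2wk and 2 were higher, beside 29.0% and 30.6% of all tested genes, and their part in the lower Hspa1a of CML 2wk was not tested.

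**Figure D4:**
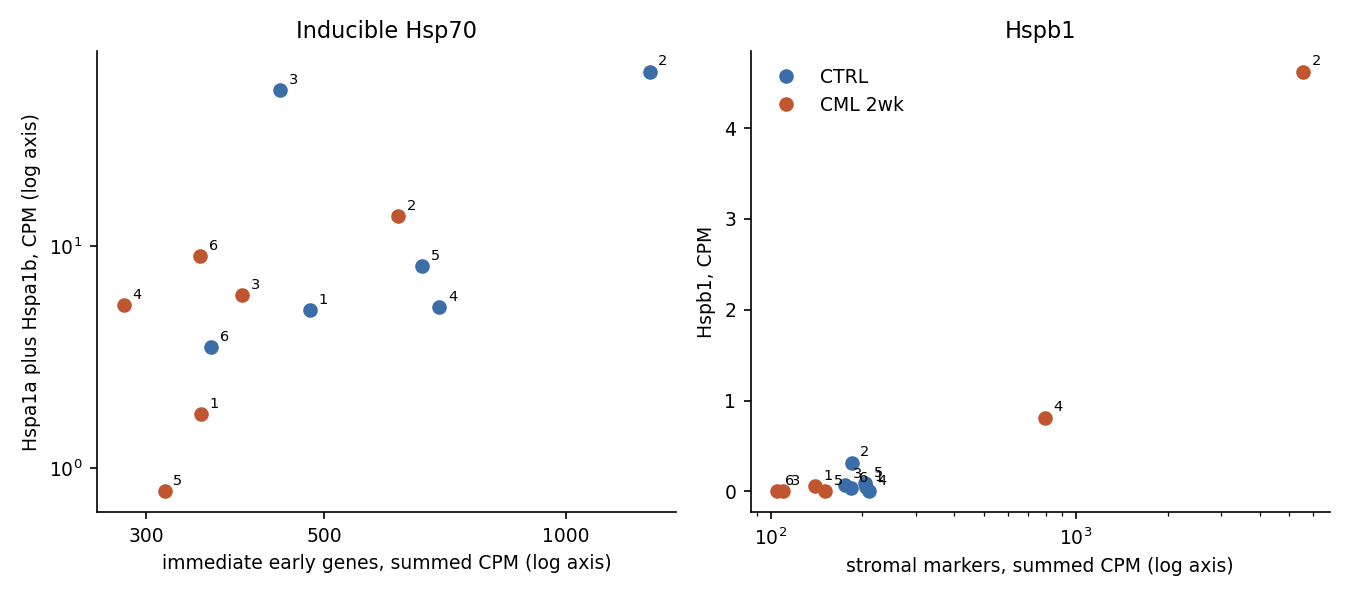
Left, Hspa1a plus Hspa1b CPM (y, log axis) against the summed CPM of 18 immediate early genes (x, log axis); right, Hspb1 CPM (y, linear) against the summed CPM of 11 stromal markers (x, log axis), 1 point per library, numbered by replicate, blue for CTRL and orange for CML 2wk. CTRL replicates 2 and 3 are both high in inducible Hsp70 at immediate early sums of 1273 and 441, and CML 2wk replicate 2 stands alone in both quantities on the right.

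Hspb1 (ENSMUSG00000004951), the small heat shock protein Hsp27, was near absence in 10 of the 12 libraries. It had at most 8 counts in every CTRL library, at 0 to 0.317 CPM. In CML 2wk replicates 1 to 6 it had 0.0567, 4.62, 0, 0.814, 0 and 0 CPM, so that replicates 2 and 4 held nearly all of the signal and replicate 2 reached 108 counts. A count of 0 allows up to 3 counts, or 0.0717 to 0.186 CPM depending on the library. It failed the filter on low counts, and without that filter its edgeR adjusted p was 0.058.

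CML 2wk replicates 2 and 4 also carried markers of stromal and endothelial cells. Of 11 such markers, 10 were highest of all 12 libraries in CML 2wk replicate 2, Cxcl12 being the exception, and 9 had CML 2wk replicates 2 and 4 as the 2 highest. Their summed CPM were 5571 in CML 2wk replicate 2, 792.5 in replicate 4, 105.1 to 151 in the other 4 CML 2wk libraries and 174.9 to 209.9 in CTRL. The collagen gene Col3a1, at 275.4 and 78.5 CPM in replicates 2 and 4, was at 0 in CML 2wk replicates 1 and 5. Spp1 and Fn1 made up most of the sum in replicate 2, at 2625 and 2005 CPM. Mast cell and basophil markers were also highest of all 12 libraries in CML 2wk replicates 2 and 4. Their summed CPM were 2419 and 1064 there, and 950.5 in CML 2wk replicate 5, the next. The part of either set of markers in the Hspb1 values was not tested. Without these 2 libraries, left out after their values were seen, Hspa8, Hsp90aa1 and Hsf1 gave log2 fold changes of 0.84, 0.42 and -0.62, and edgeR called all 3.

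Between genes, levels were compared as CPM per kilobase of annotated exons. In CTRL, Hsp90ab1 was highest at 840.2 ± 66.6 (SD, n = 6), followed by Hspa8 at 323.7 ± 33.1 and Hsp90aa1 at 233.4 ± 23.4, and the ranges of these 3 did not overlap. Next came Dnajb1 at 24.67, Dnaja1 at 17.59, Hsph1 at 10.1, Hsf1 at 7.212, Hspa1b at 5.652, Hspa1a at 2.13 and Hspb1 at 0.0917, and the range of each of these over the 6 libraries overlapped that of its neighbour. In CML 2wk the first 8 places were the same, with Hspa8 at 559.8 ± 62.5 and Hsp90ab1 at 916.7 ± 191 per kilobase. With the length of the longest transcript in place of all exons, Dnaja1 passed Dnajb1 and Hsf1 passed Hsph1. The levels moved as well, in CTRL to 24.34 per kilobase for Hsf1, 19.31 for Hsph1 and 581.6 for Hspa8. In CML 2wk Hspa8 then stood at 1006 per kilobase, near Hsp90ab1 at 1091. The members together took 0.466% to 0.568% of all raw counts in CTRL and 0.602% to 0.796% in CML 2wk, nearly all of it from the Hsp90 genes and Hspa8. As summed TMM-scaled CPM the groups overlapped, at 4690 to 5876 in CTRL and 5658 to 8011 in CML 2wk.

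The rest of the cytosolic chaperone system is given from lists of 58 genes, of which 49 could be tested. In BCR::ABL1+ cells 15 were higher and 13 lower, beside 30.6% and 29.0% of all genes, and their median log2 fold change was -0.002. Among 20 Hsp90 co-chaperones, 9 were higher and 5 lower. Cacybp, which links Siah1 to its ubiquitin ligase and binds Hsp90, rose from 114 ± 13.1 to 283.5 ± 47.6 CPM (SD, n = 6 each, log2 fold change 1.32, edgeR adjusted p = 2.31e-07). Sugt1, an adaptor of Hsp90 in kinetochore and immune receptor assembly, rose by 0.45 on the log2 scale, while Tomm34 and Nudc fell by 0.58 and 0.57 (edgeR adjusted p = 0.000123, 4.72e-06 and 4.58e-05).

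Of 9 Hsp70 cofactors, 3 were higher and 4 lower, beside 30.6% and 29.0% of all tested genes. Bag2 and Bag1, which release nucleotide from Hsp70, rose by 0.75 and 0.59 on the log2 scale, and Bag6, which guards proteins with exposed membrane anchors, fell by 0.81 (edgeR adjusted p = 3.39e-06, 1.24e-05 and 9.06e-07). Hspbp1, another exchange factor, fell by 0.54 (edgeR adjusted p = 0.000158). Genes of the Bag family thus moved in opposite directions.

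Of 9 J-domain genes, 1 was higher and 2 lower, beside 30.6% and 29.0% of all tested genes. Dnajb6, which restrains protein aggregation, rose by 0.45 (edgeR adjusted p = 1.02e-05). Dnajc7, which binds both Hsp70 and Hsp90, fell by 0.51, and Dnajb2 fell by 0.53 (edgeR adjusted p = 2.81e-06 and 0.00177). Dnajc2, the ribosome-bound Mpp11, stood at 132 ± 10.1 and 145 ± 9.5 CPM and did not pass (edgeR adjusted p = 0.0885).

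Of 6 Hsp70 relatives that could be tested, 1 was higher and 2 lower, beside 30.6% and 29.0% of all tested genes. Hspa4l, an Hsp110 like Hsph1, fell by 0.49, Hspa12b fell by 0.86, and Hspa14 rose by 0.33 (edgeR adjusted p = 1.62e-05, 0.000285 and 0.00143). Hspa2 gave a log2 fold change of -0.20 (edgeR adjusted p = 0.172). Of 8 other small heat shock proteins, 3 could be tested, and edgeR and DESeq2 each called 0 of them. Hspb9, Hspb6 and Cryab had edgeR adjusted p-values of 0.067, 0.143 and 0.193, and Hspb9 alone (1 of the 3) had an unadjusted edgeR p under 0.05, at 0.0416.

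Of the 11 heat-inducible genes that are not members, some of which stand in the lists above, 6 were higher and 3 lower, beside 30.6% and 29.0% of all tested genes, with a median log2 fold change of 0.397 beside 0.067 for all genes. The largest rise was that of Hspe1, the mitochondrial Hsp10, from 80.6 ± 9.54 to 230.2 ± 73.2 CPM (SD, n = 6 each, log2 fold change 1.51, edgeR adjusted p = 4.48e-06). Its partner Hspd1, the mitochondrial Hsp60, rose by 0.52 (edgeR adjusted p = 0.000342). Both are folding proteins of mitochondria and not of the cytosol, and mitochondrial transcripts took a larger share of counts in the same libraries, as given above.

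**Figure D5:**
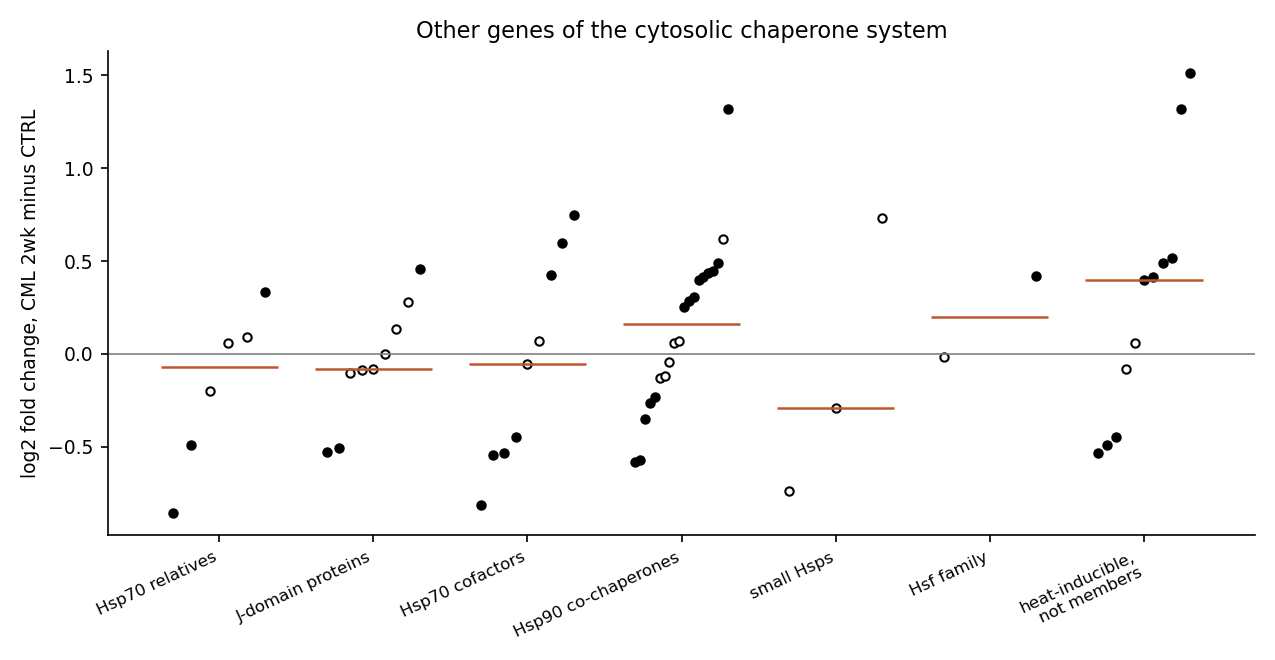
Log2 fold change (y axis, CML 2wk minus CTRL) of every tested gene in 7 lists of the chaperone system (x axis), filled where the edgeR adjusted p was under 0.05, with the list median as a line. Each list holds genes on both sides of 0, and Cacybp at 1.32 and Hspe1 at 1.51 are the highest.

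The genes whose pattern was most like the mean log2 CPM of Hspa1a, Hspa1b, Dnajb1 and Hsph1 over the 12 libraries, after each group's mean was removed, were Susd6, Ltb, Raph1, Tsc22d2, Fbxl12, Gm15564, Fam118b and Sin3b. Their Pearson r ran from 0.855 for Susd6 to 0.761 for Sin3b, as a description of 12 points that share libraries. The genes were chosen by this likeness, so their high values in CTRL replicates 2 and 3 are not a separate result. Ltb, the lymphotoxin beta gene, stood at 24.3 and 19 CPM in CTRL replicates 2 and 3 and at 9.169 to 15.75 in the other 4 CTRL libraries. Gm15564 stood at 32.55 and 24.53 CPM against 1.347 to 12.11. For Susd6 the margin was narrow, at 80.88 and 81.57 against 73.71 to 77.92 CPM. It was also narrow for Fbxl12 (13.36 and 12.68 against 10.41 to 12.29) and Fam118b (18.87 and 19.04 against 16.58 to 18.46).

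Markers of other blood cell types are given as measured facts, beside 30.6% of all tested genes higher in CML 2wk and 29.0% lower. The counts of lower B cell markers, higher neutrophil markers and higher monocyte and macrophage markers lay near these shares. Of 7 mast cell and basophil markers 5 were higher in CML 2wk and 1 (Gata2, also a stem cell factor) was lower, with summed CPM of 283.6 to 391.4 in CTRL and 460.3 to 2419 in CML 2wk. All 6 erythroid markers were lower, with sums of 84.3 to 161.5 and 9.6 to 35.3 CPM. Of 7 B cell markers 2 were lower, with sums of 432.1 to 762.1 and 29.4 to 354.8. By group means most of the B cell sum was Ighm, at 491.4 ± 128.7 and 189.2 ± 130.6 CPM (SD, n = 6 each). Ighm did not pass (edgeR adjusted p = 0.0704). Neutrophil markers were higher for 3 and lower for 5 of 10 (2200 to 4514 and 2365 to 6526 summed CPM), monocyte and macrophage markers higher for 3 of 9 (282.6 to 521 and 452.2 to 711.9), and T and NK markers higher for 1 and lower for 3 of 5 tested (78.2 to 100.8 and 86.7 to 192.7). The T and NK sum was mostly Nkg7, the 1 marker higher, at 82.7 ± 8.99 CPM in CTRL and 121 ± 34.7 in CML 2wk. By group means the largest part of the neutrophil sum was Mpo, one of the 3 higher, at 1695 ± 205 and 2692 ± 1072 CPM (SD, n = 6 each). These sums thus hide the markers that were lower. The part of these blood cell types in the differences of Hspa8, Hsp90aa1 and Hsf1 was not tested.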

How the data were processed

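Murine bulk RNA-seq libraries (12) were grouped by their titles and TET treatment. Per the submitters' processing notes, the authors used FastQC 0.11.9, fastp 0.23.2, STAR 2.7.10a and featureCounts 2.0.1 on GRCm39, and the deposited values are raw counts for each Ensembl gene. The published methods name other trimming and alignment tools and a human build. The annotation release, strand setting and treatment of multi-mapping reads are not given in the sources used here. No pair of libraries agreed within sampling noise (lowest chi-square per degree of freedom 3.777).

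Counts were fitted with edgeR 4.0.16 in R 4.3.3 (TMM, filterByExpr, quasi-likelihood F test, 18438 genes, Benjamini-Hochberg, threshold 0.05), with DESeq2 1.42.0 as an alternative. SE was the log2 fold change divided by the root of F. In simulated counts with these group sizes, 65 of 98 genes with a log2 fold change of 1 and 93 of 98 with 2 were called, and 7 of 17993 unchanged genes. Far fewer genes were changed there than were called in the data, and no library was made to stand apart. The recovery in the data can therefore differ. Ratios of members used raw counts, with every split of the libraries into 6 and 6 (smallest possible p 0.00216). Intervals of fold changes come from that fit and hold the spread between libraries, while the limit of 3 counts for a count of 0 covers counting error only. Promoters are from RefSeq GRCm38.p6; protein sequences were not used here, and coding identity came from GENCODE M21 transcripts. Symbols were matched for 52073 identifiers. The coefficient of variation was set beside the median over tested genes in the same whole-number interval of log2 mean CPM.

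Members and lists were chosen with earlier results of these data known. The genes named were all members, up to 4 tested genes per chaperone list by adjusted p, the 5 most abundant immediate early genes and the 8 genes most like the inducible members (mean log2 CPM of at least 3, prior count 2). Bag3, Chordc1, Dnajb4, Egr2, Socs3, Cxcl12, Col3a1, Spp1, Fn1, Gata2, Nkg7 and Mpo were named after their values were seen. Alternatives were other scalings and filters, the replicate block, a threshold of 0.01, and leaving out libraries. Leaving out CTRL replicates 2 and 3, or CML 2wk replicates 2 and 4, and the length of the longest transcript were chosen after seeing the data.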

Additional observations from a re-analysis of the deposited data

Results flagged for a closer look

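In 26 groups of 6 values (each member and each ratio in each group), 3 libraries stood far from the others by Dixon's gap ratio at 95%, where chance gives about 1 in 20 groups, or 1.3. Hspb1 in CML 2wk replicate 2 was 4.621 CPM, with the next library at 0.814, and it is the library with 5571 summed CPM of stromal markers. Hspb1 in CTRL replicate 2 was 0.3172 CPM, from 8 counts, with the next at 0.0886. The log2 ratio of Dnajb1 to Dnaja1 in CTRL replicate 6 was -1.082, with the next at -0.941. The high Hspa1a and Hspa1b of CTRL replicates 2 and 3 were not found this way, since a pair of high libraries lies close to each other.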

How the results depend on the processing

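Hsf1, Hsp90aa1 and Hspa8 were called in the same direction under all 21 alternatives, with log2 fold changes of -0.665 to -0.516, 0.32 to 0.464 and 0.719 to 0.866. The count of lower members fell from 2 to 1 at a threshold of 0.01 and without CTRL replicates 2 and 3 (1), through Hspa1a, and leaving out each library in turn gave 1 to 3 lower and 2 to 2 higher. Without CTRL replicates 2 and 3 the log2 fold changes of Hspa1b, Dnaja1 and Hsph1 turned to 0.241, 0.035 and 0.048, none past the threshold. Without CML 2wk replicates 2 and 4 the ratio differences were 0.358 for Hsp90aa1 to Hsp90ab1 and -2.829 for inducible to constitutive Hsp70 (both adjusted exact p = 0.0286), and that of Dnajb1 to Dnaja1 turned to 0.004. Leaving out each library gave 0.247 to 0.357, -2.621 to -1.768 and -0.092 to -0.023 for the 3 ratios, and 14 to 17 higher and 12 to 15 lower chaperone genes. Those counts were 14 and 12 without CTRL replicates 2 and 3, and 15 and 15 without CML 2wk replicates 2 and 4. Upper-quartile factors called 18 of them higher and 11 lower. Same-numbered libraries correlated between -0.1251 and 0.0679 in their deviations, which showed no pairing but cannot exclude a weak one. With the replicate block 2 members were higher and 2 lower, with Hspa1b called (adjusted p = 0.0489) in place of Hspa1a (0.0771), and the ratios had an adjusted exact p of 0.0938, 0.0938 and 0.562. Counts of 6 to 436 limit Hspa1a, and 0 to 108 limit Hspb1.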
